A study of Mus with 8 samples.

Results

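The replication-dependent histone genes were examined in tumours of MC38 cells, a mouse colon cancer line, grown under the skin of 4 wild-type (WT) hosts and of 4 Ext1S100a4Cre hosts. They were chosen by name: every array probe designed to a RefSeq transcript of a mouse gene whose current symbol begins with H2ac, H2bc, H3c or H4c and ends in a number. This gave 39 genes with 43 probes, out of 22911 genes named on the array. The RefSeq table held 58 genes of this name, and 19 of them had no probe here. H2A was covered by 13 genes, H2B by 11, H3 by 7 and H4 by 8, and 4 genes (H2bc3, H2bc21, H4c4 and H4c12) had 2 probes each. On chromosome 13 lay 32 of the genes, and on chromosome 3 the other 7.

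Histones H2A, H2B, H3 and H4 form the protein spool around which DNA is wrapped. Their replication-dependent genes lie in clusters, are transcribed in S phase under the coactivator NPAT, and supply histones for newly copied DNA. Their messages usually end in a stem-loop, which the protein SLBP binds, in place of a poly(A) tail, so they are made and destroyed with the cell cycle. A few, among them H2bc4 and H2bc21, are known to give polyadenylated messages as well, which are also found in cells that no longer divide. In a tumour these messages come mostly from cells that are replicating their DNA.

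All hosts were labelled B6. The Ext1S100a4Cre hosts carried Ext1 flox/flox with S100a4-Cre, and the labels name no floxed allele or Cre for the WT hosts and give neither the sex nor the age of any host. Ext1 encodes an enzyme that elongates heparan sulfate chains. The S100a4 promoter drives Cre in host fibroblasts and part of the immune cells, whereas the transplanted MC38 cells were 1 line without the Cre. Tumours were taken 25 to 30 days after transplantation, and 0.5 µg of whole-tumour RNA was Cy3-labelled and hybridised to a 1-colour Agilent array. The comparison asked how tumours differ when S100a4-lineage host cells lack Ext1. Because whole tumours were measured, fewer cells of a type and less RNA per cell cannot be told apart. All values below are log2 processed intensities minus the array's 75th percentile, and differences are Ext1S100a4Cre host minus WT host.

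Ext1 itself measured -0.55, -0.28, 0.24 and -0.14 in WT host tumours 1 to 4, and -0.62, -0.27, -0.54 and -0.42 in the Ext1S100a4Cre host. The groups overlapped, and the difference of -0.28 (SE 0.18) did not pass the test (limma adjusted p = 0.771). The epithelial markers Epcam, Cdh1, Krt8, Krt18, Krt20 and Cdx2 were all well above background on 8 of 8 arrays. Tumours 1 and 4 of the Ext1S100a4Cre host stood apart from the other 6. Their arrays had the lowest 75th percentiles of intensity (854.8 and 846.9, against up to 1265) and the lowest shares of probes well above background (65.66% and 65.96%, against up to 71.1%). The Y-chromosome genes Ddx3y, Eif2s3y, Kdm5d and Uty were not well above background there but were on the arrays of the other 6 tumours. The main host differences and correlations are therefore also given without them, and the part of host sex in any of them was not tested.

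Histone messages were readily measured in every tumour. Of the 43 probes, 42 (38 genes) were well above background on 8 of 8 arrays, and none lay on a saturated spot. H2ac7, an H2A gene, was the exception: its probe was well above background on 0 of 8 arrays and was left out of the fit. Levels of different probes can differ for technical reasons, which were not separated here from the amount of message. Each probe was therefore compared only with itself across tumours.

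None of the 42 histone probes passed the host comparison, which called 0% of all 39716 probes tested at an adjusted p of 0.05 (limma, Benjamini-Hochberg). At an unadjusted p under 0.05 there were 2 of 42 (4.76%), where 6.29% of all probes tested were, and both were higher in the Ext1S100a4Cre host, a direction that held 4.15% of all probes. No histone probe had groups without overlap, against 3.18% of all probes for groups without overlap and higher in the Ext1S100a4Cre host. The histone share was thus near or below that of the array as a whole. The differences ran from -0.13 to 0.51 and the limma adjusted p values from 0.771 to 0.999. For 40 of the 42 probes the unadjusted 95% interval of the difference lay inside 2-fold either way, and over all 42 the interval ends reached from -0.74 to 1.17.

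**Figure D1:**
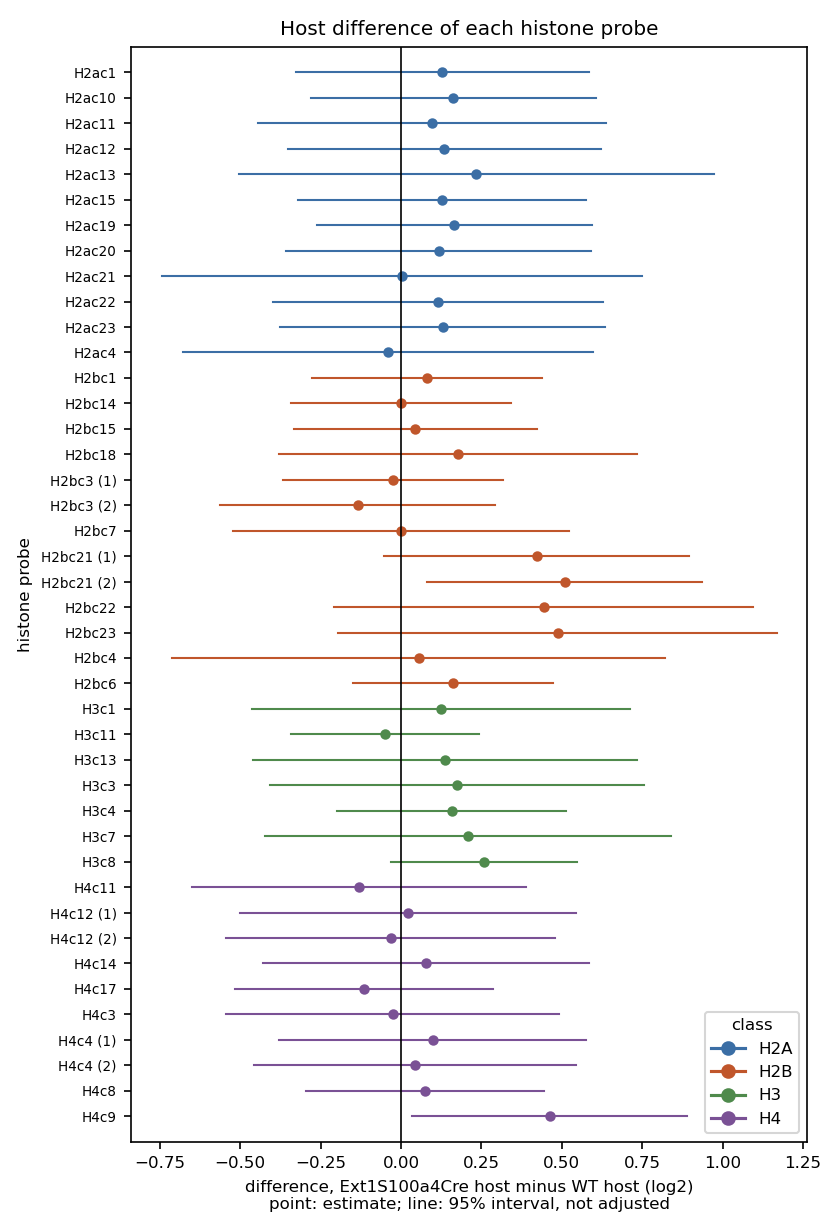
Host difference of each of the 42 histone probes (log2, Ext1S100a4Cre host minus WT host), with its unadjusted 95% interval, coloured by class; where a gene has 2 probes they are numbered in the order of their probe names. Points lie between -0.13 and 0.51, and only the intervals of H4c9 and of 1 H2bc21 probe stay above 0.

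The histone probes as a whole had a small positive median difference whose direction depended on how arrays were scaled. The median was 0.12, beside 0.043 over all probes tested, with 32 probes higher and 10 lower in the Ext1S100a4Cre host, or 76.2% higher beside 57.1% of all probes. With normexp background correction the medians were 0.093 for histone probes and 0.092 for all probes, so the excess over the array was then 0.0015. The count of higher probes was 36 of 42 with arrays scaled to the median and 31 with normexp background correction, but 17 with quantile normalization and 6 in the unscaled series matrix, where the median over all probes was -0.21. By class the median was 0.13 for H2A (11 of 12 probes higher), 0.080 for H2B (9 of 13), 0.16 for H3 (6 of 7) and 0.033 for H4 (6 of 10). Without scaling all 4 class medians were below 0, and with quantile normalization those of H2A and H4 were. The H4 median also turned with 1 tumour left out: it was -0.10 without Ext1S100a4Cre host tumour 1 and -0.099 without WT host tumour 3. The chromosome 3 probes had a median of 0.15 (8 probes) and the chromosome 13 probes one of 0.097 (34 probes).

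This shift rested most on Ext1S100a4Cre host tumours 1 and 4, and in part on WT host tumour 3. Without tumours 1 and 4 of the Ext1S100a4Cre host the median difference was -0.19, beside 0.0028 over all probes. Of the 42 histone probes, 9 were then higher. Without tumours 2 and 3 the median was 0.35, beside 0.091 over all probes, and 38 of 42 histone probes were higher. Of the 42, 15 had an unadjusted p under 0.05, where 16.4% of all probes did, and still 0 passed after adjustment. Leaving out tumour 1 or tumour 4 alone gave medians of 0.017 and 0.020, and leaving out tumour 2 gave 0.24. The medians over all probes were then 0.020, 0.037 and 0.065. Leaving out WT host tumour 3 gave 0.050, with 26 of 42 probes higher, and leaving out WT host tumour 1 gave 0.17, with 37 higher. Over all probes these medians were 0.015 and 0.069. The arrays lay in 2 slide rows with 2 tumours of each host in either. Within row 1 the median difference was -0.071 (17 higher, 25 lower) and within row 2 it was 0.24 (41 higher, 1 lower). The median over all probes is not given by row, so a shift of the whole array was not set apart there.

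Across single tumours most histone probes, though not all, followed a common order. Over the 861 pairs of histone probes the median Pearson r was 0.65 (8 tumours), and 20.6% of the pairs had a negative r. Relative to each probe's mean over the 8 tumours, the mean histone level was 0.11, -0.09, -0.27 and 0.0055 in WT host tumours 1 to 4, and 0.25, -0.22, -0.06 and 0.27 in Ext1S100a4Cre host tumours 1 to 4. The highest 2 tumours were thus numbers 1 and 4 of the Ext1S100a4Cre host and the lowest 2 were WT host tumour 3 and Ext1S100a4Cre host tumour 2, so the groups overlapped. Without scaling between arrays the same means were 0.25, 0.19, -0.29 and 0.11 in the WT host, and -0.04, -0.25, 0.06 and -0.03 in the Ext1S100a4Cre host. The low standing of WT host tumour 3 and Ext1S100a4Cre host tumour 2 was present on either scale, while the high standing of Ext1S100a4Cre host tumours 1 and 4 was not. Tumours 1 and 4 of the Ext1S100a4Cre host were the highest 2 for 20 of 42 histone probes, where 18.9% of all probes had that order. This held for 11 of 12 H2A probes, 4 of 7 for H3, 3 of 13 for H2B and 2 of 10 for H4. The lowest tumour was Ext1S100a4Cre host tumour 2 for 24 probes and WT host tumour 3 for 11.

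**Figure D2:**
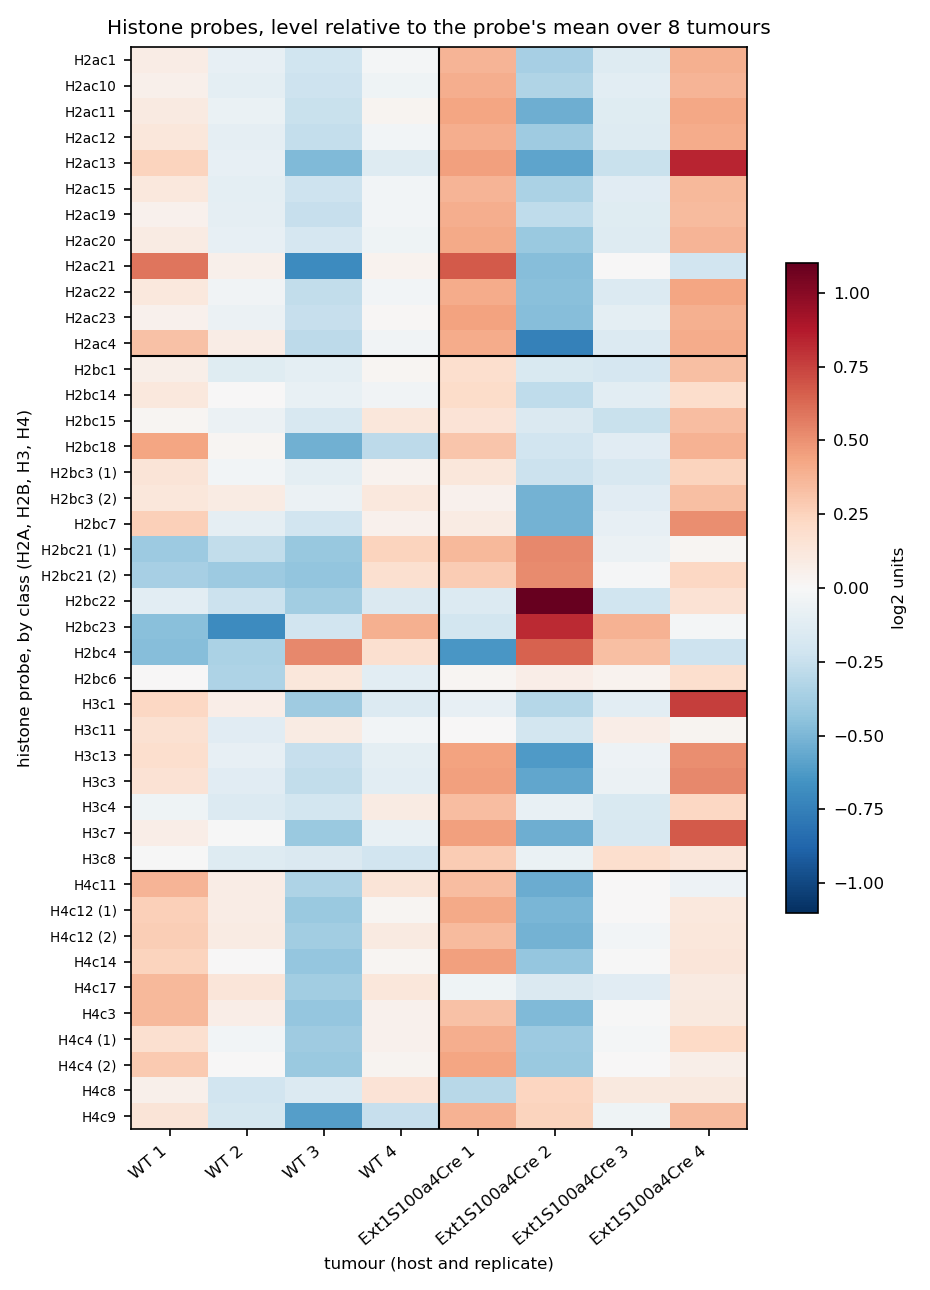
Each of the 42 histone probes (rows, by class) in each of the 8 tumours (columns), as its log2 level minus its mean over the 8 tumours; red is above and blue below that mean. Of the 12 H2A rows, 11 are red in both Ext1S100a4Cre host tumours 1 and 4, and H2ac21 is blue in tumour 4. The rows of H2bc4, H2bc6, H2bc21, H2bc22, H2bc23 and H4c8 do not follow the H2A rows. Those of H3c11 and H4c17 follow them weakly (r of 0.35 and 0.41 with H2ac10).

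The spread of histone levels within a host depended on the class and on the scaling. The median SD of a histone probe was 0.19 in the WT host and 0.36 in the Ext1S100a4Cre host, beside 0.27 and 0.30 over all probes. The range between tumours was wider in the Ext1S100a4Cre host for 33 of 42 histone probes, and for 57.2% of all probes. Without scaling the median SD was 0.26 and 0.29, and 21 of 42 histone probes had the wider range in the Ext1S100a4Cre host, beside 52.4% of all probes. The mean histone level ranged over 0.38 in the WT host and 0.49 in the Ext1S100a4Cre host after scaling, but over 0.53 and 0.32 without it. The SD of the class mean was 0.19 and 0.42 for H2A and 0.14 and 0.34 for H3, against 0.11 and 0.11 for H2B and 0.27 and 0.24 for H4. For H4, 8 of 10 probes had the wider range in the Ext1S100a4Cre host after scaling, 2 with quantile normalization and 1 without scaling. Leaving out Ext1S100a4Cre host tumours 1 and 4 would leave 2 tumours, so the spread is given only with them, and the difference in spread was not tested.

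The H2A genes, whose proteins pair with H2B, had nearly 1 profile over the 8 tumours. Their mean was 0.16, -0.06, -0.30 and -0.03 in WT host tumours 1 to 4, and 0.43, -0.45, -0.13 and 0.38 in the Ext1S100a4Cre host. Over the 66 pairs of H2A probes the median Pearson r was 0.978 (8 tumours), and 0.963 without Ext1S100a4Cre host tumours 1 and 4. With H2ac10, 8 of the other 11 H2A probes had an r of at least 0.96. Among them was H2ac1, known as the gene of a testis H2A, at 0.996. The lowest r with H2ac10 was 0.61, for H2ac21, or 0.907 without Ext1S100a4Cre host tumours 1 and 4. The genes share most of their coding sequence, and the files hold no probe sequences, so how far these probes read each other's messages was not tested.

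H2ac12 was named as the brightest H2A probe. It measured 8.05, 7.82, 7.66 and 7.89 in WT host tumours 1 to 4, and 8.32, 7.53, 7.78 and 8.33 in the Ext1S100a4Cre host. The Ext1S100a4Cre host held both the highest and the lowest tumours, and the difference was 0.13 (SE 0.21, limma adjusted p = 0.886). H2ac4 was the only H2A probe with a negative difference. It measured 6.28, 6.04, 5.67 and 5.91 in the WT host, and 6.36, 5.21, 5.80 and 6.36 in the Ext1S100a4Cre host, with a difference of -0.04 (SE 0.28). Its low mean came from tumour 2, and without that tumour the difference was 0.20.

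The H3 genes had a profile close to that of H2A in part. H3c3, H3c7 and H3c13 had an r of 0.98, 0.97 and 0.97 with H2ac10, while H3c11 had 0.35. Without Ext1S100a4Cre host tumours 1 and 4 these were 0.96, 0.95, 0.953 and 0.625. H3c4, the brightest H3 probe, measured 5.05, 4.94, 4.89 and 5.18 in the WT host, and 5.43, 5.01, 4.93 and 5.32 in the Ext1S100a4Cre host. Tumours 1 and 4 of the Ext1S100a4Cre host were above all WT host tumours and tumours 2 and 3 among them, and the difference was 0.16 (SE 0.15, adjusted p = 0.815).

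H3c8 came closest among H3 probes to separating the hosts. It measured -2.38, -2.52, -2.54 and -2.59 in the WT host, and -2.10, -2.45, -2.20 and -2.25 in the Ext1S100a4Cre host. WT host tumour 1 overlapped with Ext1S100a4Cre host tumour 2. The difference was 0.26 (SE 0.13, limma adjusted p = 0.771, exact permutation p = 0.0571), 0.18 without Ext1S100a4Cre host tumours 1 and 4, and 0.0083 in the unscaled series matrix. H3c11 measured -1.56, -1.85, -1.64 and -1.76 in the WT host, and -1.72, -1.93, -1.66 and -1.70 in the Ext1S100a4Cre host, with a difference of -0.049 (SE 0.13). These values overlapped throughout.

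The H4 genes encode the same protein, and each H4 member lists 9 or 10 other members as synonyms in RefSeq. Their probes therefore cannot be assigned to single genes with confidence. The same limit holds for H3, where each member lists 3 or 7 others, and for H2bc4, H2bc6, H2bc7 and H2bc15, which list 2 or 3. The H4 mean was 0.25, 0.0038, -0.39 and 0.043 in WT host tumours 1 to 4, and 0.27, -0.30, -0.01 and 0.13 in the Ext1S100a4Cre host. H4 thus stood at a like level in tumour 1 of either host. H4c4, read here by its brighter probe, measured 7.34, 7.14, 6.78 and 7.21 in the WT host, and 7.57, 6.76, 7.14 and 7.39 in the Ext1S100a4Cre host. The groups overlapped almost entirely (difference 0.098, SE 0.21, adjusted p = 0.919), and without Ext1S100a4Cre host tumour 1 or without WT host tumour 3 the difference was -0.019 and -0.015.

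The probe named H4c9 had the largest host difference of the H4 probes. It measured -0.047, -0.38, -0.79 and -0.44 in WT host tumours 1 to 4, and 0.20, 0.059, -0.24 and 0.17 in the Ext1S100a4Cre host. Of the Ext1S100a4Cre host tumours, 3 were above all WT host tumours and tumour 3 was below WT host tumour 1. The difference was 0.46 (SE 0.19), which is 1.38-fold, with limma unadjusted p = 0.037, adjusted p = 0.771 and exact permutation p = 0.0571. Without tumours 1 and 4 of the Ext1S100a4Cre host it was 0.33, and within slide rows 1 and 2 it was 0.34 and 0.58. It was 0.21 in the unscaled series matrix, and over 24 alternatives the smallest adjusted p was 0.297.

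H4c11 and H4c17 were the H4 probes with a negative difference and the smallest unadjusted p. H4c11 measured 1.91, 1.62, 1.20 and 1.68 in the WT host, and 1.87, 0.98, 1.54 and 1.48 in the Ext1S100a4Cre host, with a difference of -0.13 (SE 0.23). H4c17 measured -3.04, -3.26, -3.78 and -3.27 in the WT host, and -3.44, -3.55, -3.52 and -3.30 in the Ext1S100a4Cre host, with a difference of -0.12 (SE 0.18). For these genes too the groups overlapped, and limma adjusted p was 0.897 and 0.880.

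The H2B genes did not share 1 profile. The median r over the 78 pairs of H2B probes was 0.16, against 0.72 over the 45 pairs of H4 probes, and they were -0.053 and 0.89 without Ext1S100a4Cre host tumours 1 and 4. After their values were seen, the H2B probes were divided into a first and a second set. The first held the probes of genes with more than 1 RefSeq transcript (H2bc4, H2bc6, H2bc22 and H2bc23) and of H2bc21, 6 probes in all. The second held the other 7, each of a gene with 1 RefSeq transcript. H2bc21 also has 1 RefSeq transcript and was placed in the first set outside that criterion. The first set had a mean of -0.30, -0.38, -0.13 and 0.12 in WT host tumours 1 to 4, and -0.06, 0.62, 0.08 and 0.06 in the Ext1S100a4Cre host. The second had 0.17, -0.03, -0.18 and 0.0040 in the WT host, and 0.16, -0.30, -0.15 and 0.33 in the Ext1S100a4Cre host. Ext1S100a4Cre host tumour 2 was therefore the highest tumour for the first set and the lowest for the second. The median host difference was 0.43 in the first set and -0.0011 in the second, or 0.51 and -0.20 without Ext1S100a4Cre host tumours 1 and 4. It was 0.30 and -0.012 with normexp background correction, and 0.18 and -0.25 without scaling. Since the division was made on these values, it has no test.

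H2bc21, one of the histone genes known for polyadenylated messages, had the largest host difference of all members. Its first probe by signal measured -1.14, -1.17, -1.21 and -0.60 in WT host tumours 1 to 4, and -0.50, -0.25, -0.79 and -0.55 in the Ext1S100a4Cre host. All Ext1S100a4Cre host tumours were above WT host tumours 1 to 3, and WT host tumour 4 lay among them. The difference was 0.51 (SE 0.19), which is 1.42-fold, with limma unadjusted p = 0.025, adjusted p = 0.771 and exact permutation p = 0.0571. The second probe measured -1.68, -1.55, -1.70 and -1.03 in the WT host, and -0.92, -0.75, -1.34 and -1.26 in the Ext1S100a4Cre host, with a difference of 0.42 (SE 0.21). Both probes had a higher mean in the Ext1S100a4Cre host, with an r of 0.96 between them over the 8 tumours. Without tumours 1 and 4 of the Ext1S100a4Cre host the differences were 0.51 and 0.44, without scaling between arrays 0.26 and 0.17, and within slide rows 1 and 2 they were 0.78 and 0.23 for the first probe and 0.78 and 0.064 for the second. The smallest adjusted p of the first probe over 24 alternatives was 0.310.

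H2bc22 and H2bc23 lie next to each other in RefSeq order. H2bc22 measured -5.92, -6.04, -6.19 and -5.97 in the WT host, and -5.96, -4.71, -6.03 and -5.65 in the Ext1S100a4Cre host. Ext1S100a4Cre host tumour 2 alone was high, and the difference of 0.44 (SE 0.28, adjusted p = 0.771) was 0.15 without it. H2bc23 measured -5.37, -5.60, -5.12 and -4.52 in the WT host, and -5.12, -4.09, -4.53 and -4.93 in the Ext1S100a4Cre host, with a difference of 0.49 (SE 0.30, adjusted p = 0.771). Tumour 2 was again the highest, and without it the difference was 0.30. The probes of H2bc22 and H2bc23 were the dimmest histone probes in the fit. With normexp background correction their differences were 0.28 and 0.32.

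H2bc4, the other gene known for polyadenylated messages, ran against the rest. Its per-tumour values were singled out after they were seen. It measured 2.00, 2.12, 3.00 and 2.64 in WT host tumours 1 to 4, and 1.83, 3.12, 2.80 and 2.24 in the Ext1S100a4Cre host. It was highest where most histone probes were lowest, in WT host tumour 3 and Ext1S100a4Cre host tumour 2, and its r was negative with 35 of the other 41 histone probes. The hosts did not differ in it beyond their spread (difference 0.056, SE 0.33, adjusted p = 0.974).

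H2bc18, the brightest H2B probe, followed the common profile. It measured 3.09, 2.67, 2.12 and 2.36 in the WT host, and 2.96, 2.44, 2.52 and 3.03 in the Ext1S100a4Cre host, with a difference of 0.18 (SE 0.24, adjusted p = 0.866). The first H2bc3 probe measured 2.64, 2.47, 2.40 and 2.54 in the WT host, and 2.62, 2.26, 2.32 and 2.75 in the Ext1S100a4Cre host (difference -0.024, SE 0.15). The second measured -2.83, -2.87, -3.02 and -2.84 in the WT host, and -2.91, -3.48, -3.08 and -2.63 in the Ext1S100a4Cre host (difference -0.13, SE 0.19). In all 3 probes the highest and lowest tumours of the 2 hosts interleaved.

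**Figure D3:**
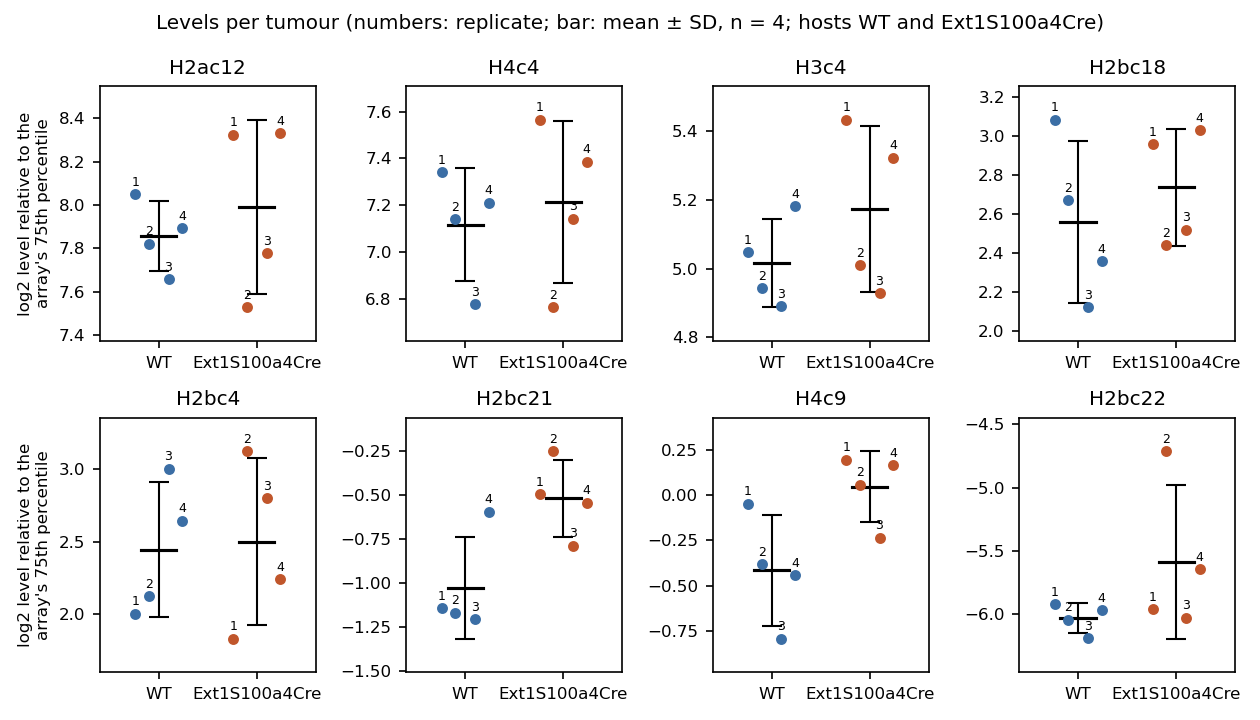
Levels of 8 histone genes in each tumour (points, numbered by replicate; bars are mean and SD, n = 4), as log2 intensity minus the array's 75th percentile; for genes with 2 probes the brighter is shown. H2ac12, H4c4 and H3c4 are highest in Ext1S100a4Cre host tumours 1 and 4, H2bc4 is highest in Ext1S100a4Cre host tumour 2 and WT host tumour 3, and H2bc21 is higher in all Ext1S100a4Cre host tumours than in WT host tumours 1 to 3.

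Many H2A and H2B genes lie side by side, and 6 such neighbouring pairs were measured. H2ac1 and H2bc1 had an r of 0.93 over the 8 tumours, H2ac15 and H2bc15 0.85, and H2ac4 and H2bc3 0.91 and 0.89 with the 2 H2bc3 probes. In the other 3 pairs the r was 0.0048 and 0.090 for H2ac20 with the 2 H2bc21 probes, -0.35 for H2ac22 and H2bc22, and -0.41 for H2ac23 and H2bc23. Without Ext1S100a4Cre host tumours 1 and 4 the first 3 pairs had an r of 0.788, 0.644, and 0.882 and 0.931, and the other 3 had -0.634 and -0.635, -0.664 and -0.55. H2ac10, which is in none of these pairs, had an r of 0.92 with H2bc1, 0.84 with H2bc15, and 0.88 and 0.72 with the 2 H2bc3 probes. Its r was 0.11 and 0.20 with the 2 H2bc21 probes, -0.26 with H2bc22 and -0.35 with H2bc23. Since the H2A probes had nearly 1 profile, the pairs do not tell a neighbour apart from another H2A gene. The r was thus high in 3 pairs and near 0 or negative in 3. The latter were the pairs whose H2B gene belongs to the first H2B set. That set was formed after the values of its probes were seen, so this match is not a separate result. These correlations describe 8 tumours that share arrays, scaling and cell mixture, and carry no test.

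Other genes of the pathway were read from 6 lists, none of which had a member past the adjusted threshold. Of 16 genes for transcription and processing of histone messages, 10 were higher and 6 lower in the Ext1S100a4Cre host (median 0.033, but -0.0064 with the percentile over probes detected on 8 arrays, -0.22 without scaling and -0.11 without Ext1S100a4Cre host tumours 1 and 4). Sympk, part of the 3′ end cleavage complex, differed by 0.36 (SE 0.15, limma adjusted p = 0.771), and Hinfp, a transcription factor of H4 genes, by 0.33 (SE 0.17, adjusted p = 0.771). Slbp, which binds the stem-loop, had a mean of -1.12 ± 0.36 (SD, n = 4) in WT tumours and of -1.26 ± 0.36 (SD, n = 4) in Ext1S100a4Cre tumours, a difference of -0.13 (SE 0.24). Npat had means of -0.52 ± 0.33 and -0.60 ± 0.20 (SD, n = 4 each), a difference of -0.074 (SE 0.20). The differences of Slbp and Npat were smaller than the SD between tumours.

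Genes that carry histones to chromatin, and other histone genes, had small positive medians. Of 16 histone chaperones and modifiers of new histones, 11 were higher and 5 lower (median 0.091), with Hira, a chaperone of replacement H3, at 0.19 (SE 0.16) and Nap1l1, a chaperone of H2A and H2B, at 0.22 (SE 0.20). The 5 linker histones made in S phase had a median of 0.11 (4 higher, 1 lower), with H1f2 at 0.21 (SE 0.17) and H1f4 at 0.12 (SE 0.24). The 11 replacement histones, which are made outside S phase as well, had a median of 0.18 (10 higher, 1 lower), with H1f10 at 0.64 (SE 0.33) and Macroh2a2 at 0.56 (SE 0.29). All these members had a limma adjusted p of at least 0.771. The medians of these 3 lists were -0.16, -0.14 and -0.074 without scaling, and -0.11, -0.19 and 0.0052 without Ext1S100a4Cre host tumours 1 and 4.

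S phase and division genes were spread about 0, and their order of tumours was close to that of most histone probes. Of 26 S phase genes, 13 were higher and 13 lower (median 0.0039, but -0.083 with quantile normalization). Ccne2, a cyclin of S phase entry, differed by -0.29 (SE 0.17) and Mcm2, a subunit of the replicative helicase, by 0.42 (SE 0.29). Of 14 genes of G2 phase and mitosis, 5 were higher and 9 lower (median -0.065), with Cdk1, the kinase that starts mitosis, at -0.27 (SE 0.27) and the proliferation marker Mki67 at -0.19 (SE 0.27). The S phase list mean was 0.18, 0.22, -0.36 and -0.08 in WT host tumours 1 to 4, and 0.37, -0.47, -0.12 and 0.27 in the Ext1S100a4Cre host. The list of G2 and mitosis genes was likewise highest in Ext1S100a4Cre host tumour 1 (0.46) and lowest in tumour 2 (-0.66). Without Ext1S100a4Cre host tumours 1 and 4 the medians of the 2 lists were -0.29 and -0.45, and without scaling they were -0.25 and -0.31.

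With the S phase list mean, histone probes had a median r of 0.84 over the 8 tumours, beside 0.17 for all probes. The median was 0.87 for H2A, 0.90 for H4, 0.69 for H3 and 0.69 for H2B. Single H2B probes ran from -0.97 to 0.91 and single H4 probes from -0.48 to 0.94. The lowest in H2B, -0.97, was H2bc4, and H2bc23, H2bc22, H2bc6 and the 2 H2bc21 probes had -0.65, -0.42, -0.27, -0.13 and -0.12. The lowest in H4, -0.48, was H4c8, which had -0.43 with the list mean of G2 and mitosis genes. All H2A and H3 probes had a positive r. Without Ext1S100a4Cre host tumours 1 and 4 the median over histone probes was 0.837, beside 0.0698 for all probes, and without scaling it was 0.84, beside 0.346. In both cases all 6 probes of the first H2B set had a negative r, with medians of -0.652 and -0.324. That set was formed after its values were seen. The lowest r of an H4 probe was -0.393 without those tumours and 0.0366 without scaling. These values describe tumours that share arrays and cell mixture, and no test was made of them.

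Markers of other cell types also differed between tumours. Over all 6 fibroblast markers the mean was 0.20, 0.77, 2.06 and -0.04 in WT host tumours 1 to 4, and -3.24, 0.91, 0.17 and -0.83 in the Ext1S100a4Cre host. Over all 6 macrophage markers it was 0.15, 0.72, 2.27 and 0.09 in the WT host, and -2.72, -0.39, 0.55 and -0.67 in the Ext1S100a4Cre host. Fibroblast and macrophage markers were thus lowest in Ext1S100a4Cre host tumours 1 and 4, where the mean histone level was highest, and highest in WT host tumour 3. The median r of histone probes was -0.72 with the fibroblast mean and -0.60 with the macrophage mean, beside -0.26 and -0.26 for all probes. Without Ext1S100a4Cre host tumours 1 and 4 they were -0.564 and -0.187, beside -0.221 and -0.179 for all probes, so the median for macrophage markers was then close to that of the array. Without scaling they were -0.25 and -0.156, beside 0.281 and 0.285. Muscle markers averaged 2.65 and 3.40 in Ext1S100a4Cre host tumours 2 and 3 and -0.16 or less in the other 6. The 5 measured erythroid markers of 6 listed averaged -0.69, -0.20, -1.07 and -1.63 in WT host tumours 1 to 4, and 1.24, 2.92, -0.36 and -0.21 in the Ext1S100a4Cre host. All 5, among them Hba-a1 and Hba-a2, were higher in the Ext1S100a4Cre host, 4 with an unadjusted p under 0.05 and 0 after adjustment (limma, smallest adjusted p = 0.771). Over all probes tested, 57.1% were higher and 6.29% had an unadjusted p under 0.05. All 6 muscle markers were higher as well, 4 of them with an unadjusted p under 0.05. All 6 fibroblast and all 6 macrophage markers were lower, 2 and 3 of them with an unadjusted p under 0.05. The erythroid mean was highest in Ext1S100a4Cre host tumour 2, where the first H2B set and H2bc22 were also highest. With it the first H2B set had a median r of 0.523 and the other H2B probes one of -0.294. All probes had a median of 0.038. Single probes of the first set ran from 0.118 (H2bc4) to 0.813 (H2bc22). Without Ext1S100a4Cre host tumours 1 and 4 the medians were 0.56 and -0.654, beside -0.0074 for all probes. Without scaling they were 0.428 and -0.576, beside -0.127, and H2bc6 had -0.21. The H2B sets were formed after their values were seen, and this contrast has no test. No such r was taken with the muscle mean. Of the other lists, all 6 T and NK cell markers and all 5 endothelial markers were lower in the Ext1S100a4Cre host. So were 3 of 5 B cell markers, all 3 with a limma unadjusted p under 0.05, and 2 of 4 neutrophil markers. None passed after adjustment. The part of the cell mixture in the histone values was not tested.

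**Figure D4:**
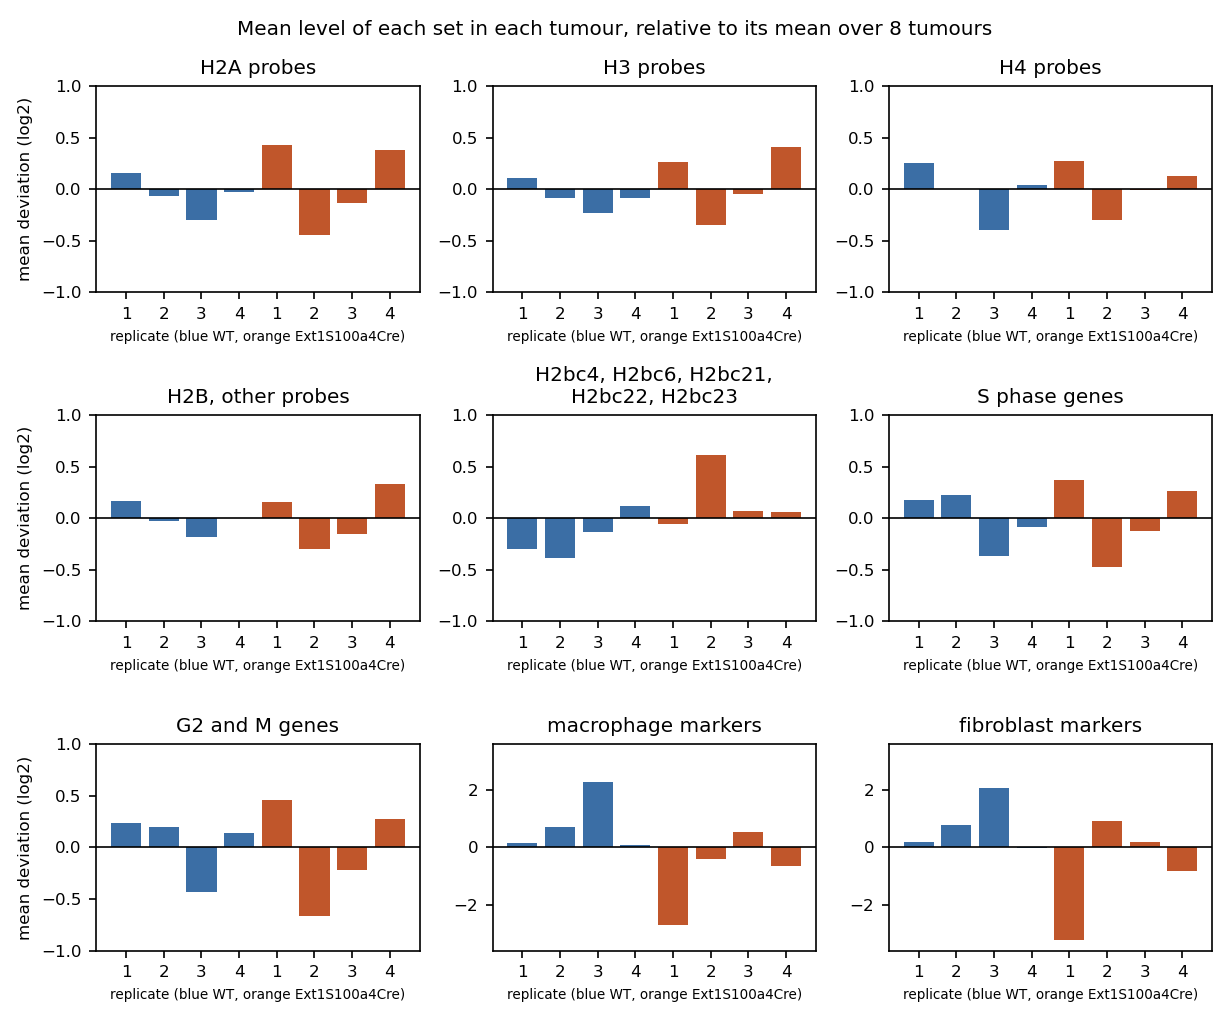
Mean deviation from the 8-tumour mean (log2) for each histone class, for H2B in its 2 sets, for S phase and for G2 and mitosis genes, and for macrophage and fibroblast markers, by tumour (blue WT host, orange Ext1S100a4Cre host; the last 2 panels have a wider axis). H2A, H3, H4 and the other H2B probes share the lows of WT host tumour 3 and Ext1S100a4Cre host tumour 2 with the S phase genes, and the set of H2bc4, H2bc6, H2bc21, H2bc22 and H2bc23 has its high in Ext1S100a4Cre host tumour 2 (0.62).

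The labelling kit bears on which histone messages were read. Kits of this kind usually start from the poly(A) tail, but the labels do not state the primer, and most replication-dependent histone messages lack such a tail. The levels here are therefore those of messages this labelling could copy, and how they relate to the whole pool of histone messages was not tested.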

How the data were processed

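RNA of 8 whole tumours (4 WT host, 4 Ext1S100a4Cre host) was measured on 1-colour Agilent arrays, on a single slide. Per the file headers the deposited values are spot intensities, background-subtracted and detrended by Feature Extraction 10.7.3.1 (the submitters' processing notes name 9.1), with flags of 0 or 1 for spots well above background, saturated or outlying. The deposited series matrix holds the same intensities, unscaled and uncentred (100% within 0.01%). Control and outlier spots (53 to 132 an array) were left out, spots of a probe averaged, and each array's 75th percentile subtracted from log2 intensity. Of 56605 probes, the 39716 that passed the background flag on 4 or more of 8 arrays were kept. Names came through RefSeq accessions (assembly GRCm38.p6; 32994 probes matched); the headers name build mm9, so no coordinates are given.

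The hosts were compared per probe with limma 3.58.1 in R 4.3.3 (lmFit, eBayes, two-sided, no covariates; Benjamini-Hochberg over all kept probes, threshold 0.05), tested on simulated data, and by an exact two-sided permutation test over 70 splits (smallest possible p 0.0286). The number of arrays limits the precision. The labels do not say whether tumours of a host came from separate litters or experiments, so p-values measure the spread between these tumours. Other lists used 1 probe a gene, the brightest kept; list means are over measured members. Named with values in each tumour were the 6 higher and 6 lower histone probes with the smallest unadjusted p and the brightest of each class; of other lists, the 2 genes with the smallest p, Slbp and Npat. Members and lists were chosen with earlier results of these data known. Files were read with the R packages jsonlite (version 2.0.0) and data.table (version 1.17.8). Alternatives covered background correction, scaling, filters, probes per gene, blocks, weights and tumours left out. No sequences were read, since none were in the files used here.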

Additional observations from a re-analysis of the deposited data

Results flagged for a closer look

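In H2bc21, WT host tumour 4 stood apart from the other WT host tumours. The brighter H2bc21 probe measured -0.595 there, against -1.21 to -1.14 in the other 3, a gap that was 0.896 of the group's range, past Dixon's 95% critical value for 4 samples. It was 1 of 84 groups of 4 examined, 1.19%, and chance alone gives about 1 in 20. Without this tumour the host difference of the probe was 0.65.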

How the results depend on the processing

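Over 25 alternatives, 1 of them (leaving out genes listed as synonyms of another member) chosen after seeing the data, 0 histone probes passed the adjusted threshold, and the median difference ran from -0.19 to 0.35. The count at unadjusted p under 0.05 was 1 with median scaling, 0 in the unscaled series matrix and 1 without Ext1S100a4Cre host tumours 1 and 4. The shares of all probes were then 5.19%, 8.37% and 5.54%. The count was 15 without tumours 2 and 3 and 1 without synonym genes, beside 16.4% and 6.29% of all probes. With 1 tumour left out the count was 0 to 3, beside 4.42% to 9.07% of all probes. In the unscaled series matrix the median difference was -0.13 and that of H2B -0.17, and the mean histone level was 0.19 in WT host tumour 2 and -0.036 and -0.030 in Ext1S100a4Cre host tumours 1 and 4; subtracting no percentile shifts all probes of an array alike. Without tumours 1 and 4 the medians were -0.19 for all histone probes, -0.22 for H2A, -0.079 for H2B, -0.15 for H3 and -0.19 for H4, and without tumours 2 and 3 they were 0.35 for all, 0.46 for H2A, 0.23 for H2B and 0.25 for H4. The H4 median, 0.033, was also below 0 with quantile normalization (-0.076), the percentile over probes detected on 8 arrays (-0.0070), no scaling (-0.22) and array weights (-0.029), and ran from -0.10 to 0.16 with 1 tumour left out. Among single probes, none of which passed, directions turned as follows, and the cause was not tested. With quantile normalization H2ac12 stood at -0.059 and H4c4 at -0.077. In the unscaled series matrix H2ac12, H2bc18, H3c4 and H4c4 stood at -0.12, -0.072, -0.092 and -0.15. The first H2bc3 probe was 0.0042 with median scaling, and with array weights it was 0.020 and H3c11 0.017. Without tumours 1 and 4, H2ac12, H2bc18, H3c4 and H4c4 were -0.20, -0.079, -0.047 and -0.16. Without tumours 2 and 3, the first and second H2bc3 probes, H4c11 and H2ac4 were 0.17, 0.12, 0.078 and 0.38. With 1 tumour left out, the first H2bc3 probe ran from -0.11 to 0.051, the second from -0.27 to 0.017, H2ac4 from -0.18 to 0.20, H4c4 from -0.019 to 0.25, H4c11 from -0.27 to 0.031 and H3c11 from -0.10 to 0.010.

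Tumours with the same replicate number did not deviate together throughout (r of 0.49, -0.17, 0.60 and -0.24 for numbers 1 to 4). The best r with another number was 0.20, 0.27, 0.225 and 0.31. Numbers 1 and 3 thus matched best within the number and numbers 2 and 4 did not. These values do not settle whether the numbers pair the tumours. With the replicate number as a block the median difference was 0.12, 0 histone probes passed and 10% of all probes had an unadjusted p under 0.05, against 6.29% without it. Leaving out probes whose accession or sequence stands for more than 1 gene was not run, since each accession stood for 1 gene and no probe sequences were used here; leaving out synonym genes left no H3 or H4 probe. Spread and correlations without scaling or without Ext1S100a4Cre host tumours 1 and 4 were added after seeing the data. Normexp used median spot intensities. Brightness over background and 4 tumours a host limit what could be detected.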
